A study of Drosophila melanogaster with 6 samples.

Results

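The nuclear genes of the oxidative phosphorylation complexes were examined in Drosophila S2 cells offered fragments of apoptotic cells. They were found among probe sets assigned to a single gene by symbol: ND- for complex I, Sdh for complex II, UQCR- with RFeSP, ox and Cyt-c1 for complex III, COX followed by a digit for complex IV, and ATPsyn for complex V. The 85 such probe sets covered 76 of the 11982 genes with a single-gene probe set, and where a gene had several, the one with the highest mean over the 6 arrays stands for it. Complex I had 32 genes, complex II 7, complex III 9, complex IV 14 and complex V 14. By name, 54 encode subunits, 21 are paralogs whose symbol ends in L or L and a digit, and 1, Sdhaf3, encodes an assembly factor. The rule leaves out subunits under other symbols and the subunits encoded in mitochondrial DNA.

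S2 cells are a macrophage-like line established from Drosophila embryos. The fragments group was kept for 1 h at 25 °C with 25 apoptotic fragments per cell, and the medium-alone group for the same time without fragments. Both were in medium with 1% serum, whereas the cells of both groups had been maintained in more serum. The step to less serum was therefore shared by the groups. The RNA input was 150 ng for every sample. Each group had 3 arrays, described as biological replicates. The fragments had been prepared from S2 cells dying in cycloheximide at 1.5 µg/ml for 24 h, so RNA or drug carried over with them was absent from medium alone, and its effect cannot be told apart from a response of the living cells. Neither the number of living cells nor the RNA per cell is given for these samples. Fewer living cells and less RNA per cell could therefore not be told apart either.

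Oxidative phosphorylation takes place at the inner mitochondrial membrane. Complex I oxidises NADH and complex II succinate; both pass electrons through ubiquinone to complex III, from which cytochrome c carries them to complex IV and oxygen. Complexes I, III and IV pump protons, and complex V, the ATP synthase, uses the returning protons to make ATP. In flies several subunits have a second gene copy with expression enriched in the testis, and genes of this kind are among the paralogs marked L.

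The values are the log2 expression values deposited by the authors, 1 per probe set and array. Of the 18769 probe sets tested, 61.4% moved by less than 0.01 log2 units over the 6 arrays. These are called flat, and the other 7241 varying. Replicate 3 of medium alone stood apart: across the tested probe sets it correlated at r = 0.99 and 0.9907 with the other arrays of its group, which correlated with each other at r = 0.9993, and the fragment arrays correlated among themselves at r = 0.9974 to 0.9988. Medium-alone replicates 1 and 2 correlated more closely with the fragment arrays (r = 0.9936 to 0.9943) than with replicate 3 of their own group. That replicate correlated with the fragment arrays at r = 0.9794 to 0.9842. The hemocyte genes Hml, srp, Col4a1 and vkg averaged between 9.30 and 11.25 in both groups, while NimC1, 1 of the 11 hemocyte markers, was flat at 6.09. Of the other 6, crq differed by -0.80 (limma adjusted p = 0.0698, and 0.00559 without flat probe sets), ush by 0.63 and eater by -0.11, each with groups apart; drpr and Pxn overlapped, and He did too. Means of He, eater and Pxn, 5.95 to 6.97, lay near 6.23, the median of the flat probe sets. Medium-alone replicate 3 was below the mean of the other 2 arrays of its group by a difference of -0.92 in Hml, -0.79 in srp, -0.95 in ush and -0.63 in vkg. The difference was -0.59 in drpr, -0.41 in Col4a1, -0.092 in eater and -0.0067 in Pxn, but 0.15 in crq and 0.032 in He. Among the markers of other cell types given below it was -0.66 in elav, -0.32 in bam and -0.017 in vas. Why this array stood apart was not tested. The summed log2 values of the 11 were 96.2 to 96.9 on the fragment arrays and 93.9 to 98.4 in medium alone. Of 15 measured markers of other cell types, 12 were flat. Of the 3 others, bam, a germline gene, differed by 0.91 with groups apart (limma adjusted p = 0.181, and 0.0224 without flat probe sets), the neuronal gene elav by 0.29 with groups overlapping, and vas by -0.075 with groups apart. The sums of the 15 were 95.8 to 96.3 on the fragment arrays and 94.4 to 95.5 in medium alone. The part of cell makeup in the results was not tested.

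Of the 76 genes, 29 were flat and can show no difference in these values. The paralogs make up most of them, with 20 of the 21 flat at values from 5.83 to 6.69; the exception, SdhBL, moved between 5.95 and 6.01. The other 9 flat genes encode subunits, and for several of them the value was far from the 6.23 given above. ATPsyngamma, the rotating shaft of the ATP synthase, read 12.50 on each of the 6 arrays, and ATPsynC, the subunit of its membrane ring, 11.93. Cyt-c1, the haem subunit of complex III that hands electrons to cytochrome c, read 10.84, and ND-51, which binds NADH and the flavin of complex I, 10.12. ND-75, which holds iron-sulfur clusters of the electron path, read 8.63. A flat value therefore does not show that a gene is silent, and it does not show that its transcript was unchanged.

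None of the 76 genes passed the test. In limma, with Benjamini-Hochberg adjustment across the 18769 probe sets, 0 genes were higher and 0 lower with fragments at an adjusted p of 0.05, where 0.304% of all probe sets passed (0.0533% higher and 0.250% lower). The smallest adjusted p was 0.300. An unadjusted p under 0.05 was reached by 5 genes (6.58%), against 10.8% of all probe sets. With the flat probe sets left out of the fit, 0 of the 47 varying genes passed, against 6.85% of the varying probe sets (2.29% higher and 4.56% lower), and the smallest adjusted p was 0.0866. There an unadjusted p under 0.05 was reached by 7 genes (14.9%), against 23.6% of the varying probe sets.

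The differences were small and mostly on one side of 0. On the deposited scale 46 of the 47 varying genes had a negative log2 fold change (fragments minus medium alone), with a median of -0.10 and a range from -0.43 to 0.021, whereas 41 of them had a positive one, with a median of 0.16, when each array was set to its hybridisation spikes. That scale, based on bacterial and phage transcripts added to each array, raises every log2 fold change by 0.26, those of flat probe sets included. The shift is itself uncertain, since the spike means of the groups overlapped. They were 10.482, 10.271 and 10.398 on fragment replicates 1 to 3, and 10.680, 10.471 and 10.785 on medium-alone replicates 1 to 3. The median over all varying probe sets was -0.0035 on the deposited scale and 0.26 on the spike scale, and 52.2% of them were negative on the deposited scale. In 13 varying genes (27.7%) the 3 fragment arrays lay wholly below the 3 medium-alone arrays, and in 0 wholly above. Over all varying probe sets the shares were 17.4% below and 14.7% above. With ND-B18, a flat gene that differed by -0.0035, 14 of the 76 genes lay below, against 9.74% of all probe sets tested. On the spike scale 4 of the 47 genes lay wholly above and 0 wholly below, against 36.4% above and 3.36% below of all varying probe sets. With the arrays centred on the median of the varying probe sets 3 lay wholly below, against 14.0% of those probe sets, so the count read against all probe sets turned with the scale. The log2 fold change was negative in 42 of the 47 genes when centred (median -0.086) and in 44 after quantile normalization (median -0.11). Of all 7241 varying probe sets 3082 were negative when centred and 3654 after quantile normalization.

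The extreme values lay mostly on 1 array of each group. Medium-alone replicate 3 was the highest of the 6 arrays in 33 of the 47 genes, and fragment replicate 3 the lowest in 34. Over all 7241 varying probe sets medium-alone replicate 3 was the highest in 2167. How often fragment replicate 3 was the lowest of the 6 was not counted there. Relative to each gene's mean over the 6 arrays, the median deviation of the 47 genes was -0.015, -0.024 and -0.11 on fragment replicates 1 to 3, and 0.011, 0.00030 and 0.15 on medium-alone replicates 1 to 3. Without medium-alone replicate 3 the median log2 fold change was -0.050, against -0.0062 over all varying probe sets, with 45 of 47 genes negative on the deposited scale. In limma 0 genes were then called, where 0.0426% of all probe sets were, and 0 among the varying ones, where 12.1% were (4.72% higher and 7.37% lower). The 3 fragment arrays then lay wholly below the other 2 in 16 genes and wholly above in 0, where 24.6% and 19.2% of all varying probe sets did so. Without replicate 3 of either group, a setting chosen after seeing the data, the median on the deposited scale was -0.023 and 34 of 47 genes (72.3%) were negative, against -0.011 and 55.7% over all varying probe sets.

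**Figure D1:**
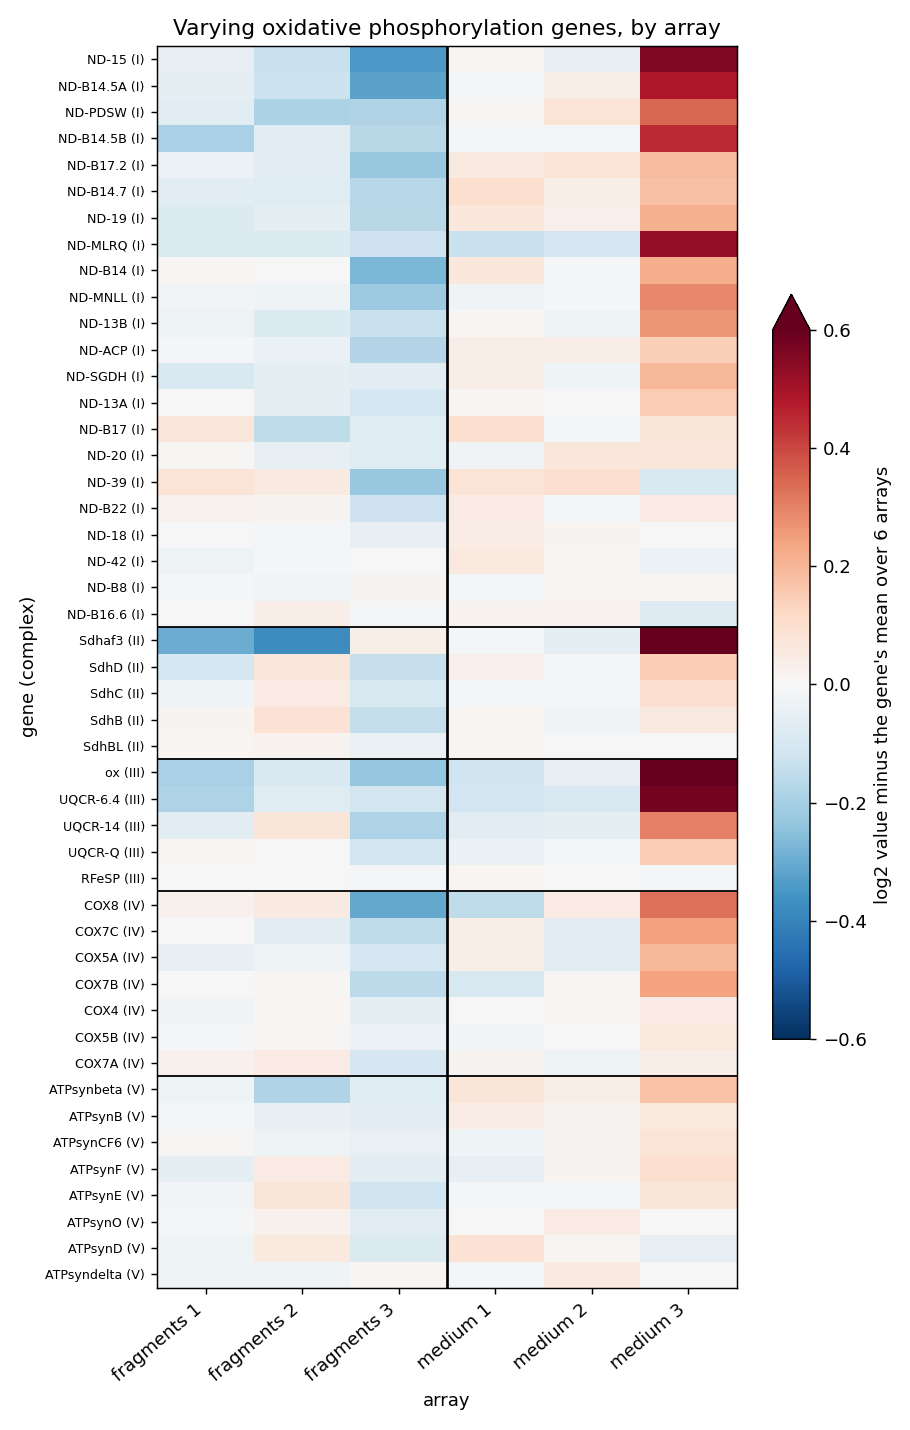
Deviation of each of the 47 varying genes from its own mean over 6 arrays, in log2 units on the deposited scale (colour), by array (columns, fragments left of medium alone) and complex (rows, separated by black lines). Medium-alone replicate 3 is the highest array in 33 genes (and in 2167 of all 7241 varying probe sets), and fragment replicate 3 the lowest in 34. The spike scale would add 0.26 to each difference between groups.

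Complex I held 11 of the 13 genes whose groups did not overlap on the deposited scale, out of its 22 varying genes, where 17.4% of all varying probe sets were so placed. Centred on the varying probe sets, 2 of the 22 lay wholly below, against 14.0%, and on the spike scale 1 lay wholly above, against 36.4%. The median over its 22 varying genes was -0.15 as deposited and 0.11 on the spike scale. None passed (limma; smallest adjusted p 0.318, and 0.0866 without flat probe sets). Without medium-alone replicate 3 the median was -0.086, and 13 of the 22 had fragment arrays wholly below the rest, against 24.6% of all varying probe sets. Without replicate 3 of either group it was -0.051, with 20 of 22 negative on the deposited scale.

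The subunits of the peripheral arm, which protrudes into the matrix and carries electrons from NADH to ubiquinone, and those of the membrane arm, which pumps protons, were also taken separately. The 9 varying genes of the peripheral arm had a median of -0.11, with 5 genes wholly below, and the 11 of the membrane arm a median of -0.17, also with 5 wholly below (55.6% and 45.5%, against 17.4% of all varying probe sets), on the deposited scale. The spike scale puts each median 0.26 higher, above 0, and the counts for complex I as a whole on that scale are given above. The difference between the arms was not tested. In the peripheral arm ND-B14.5A, the fly NDUFA7, read 9.08, 9.01 and 8.82 with fragments, against 9.13, 9.18 and 9.63 in medium alone. Its groups did not overlap, but the lowest medium-alone array was only slightly above the highest fragment array, and the third array of medium alone stood far above the rest. The log2 fold change was -0.34 with a 95% interval of -0.82 to 0.14 (limma adjusted p = 0.611), and -0.18 without that array. ND-B17.2, the fly NDUFA12, read 9.53, 9.50 and 9.33 with fragments, against 9.61, 9.64 and 9.75 in medium alone (log2 fold change -0.22, adjusted p = 0.421). ND-20, which holds the last iron-sulfur cluster before ubiquinone, had overlapping groups (log2 fold change -0.078), at 10.56, 10.51 and 10.48 with fragments and 10.53, 10.62 and 10.62 in medium alone.

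In the membrane arm the clearest separation was that of ND-B14.7, the fly NDUFA11. It read 9.88, 9.88 and 9.78 with fragments, against 10.05, 9.98 and 10.13 in medium alone. Here no single array set the gap, and the log2 fold change of -0.21 (SE 0.053, limma adjusted p = 0.318, and 0.0866 without flat probe sets) was -0.17 without medium-alone replicate 3 and -0.14 without replicate 3 of either group; it was 0.055 on the spike scale. ND-19, the fly NDUFA8, had a log2 fold change of -0.20 (adjusted p = 0.397), at 9.92, 9.94 and 9.83 with fragments against 10.06, 10.03 and 10.21 in medium alone. ND-B17.2, ND-B14.7 and ND-19 were the 3 genes of complex I with an unadjusted p under 0.05 and were singled out after their values were seen.

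ND-PDSW, the fly NDUFB10, read 9.71, 9.58 and 9.59 with fragments, against 9.78, 9.85 and 10.12 in medium alone. The gap between the groups was smaller than the spread within medium alone (log2 fold change -0.29, 95% interval -0.59 to 0.0083, limma adjusted p = 0.476). ND-B14.5B, the fly NDUFC2, read 10.26, 10.39 and 10.29 with fragments and 10.45, 10.45 and 10.90 in medium alone, with a log2 fold change of -0.28 that became -0.13 without medium-alone replicate 3. The other genes with groups apart were ND-13B, ND-13A and ND-18 of the peripheral arm, ND-SGDH of the membrane arm, and ND-ACP, the mitochondrial acyl carrier protein, with log2 fold changes from -0.040 to -0.16. ND-18 stood at -0.040, a difference of 1.03-fold.

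Some of the larger differences in complex I rested on 1 array. ND-MLRQ read 11.996, 12.003 and 11.957 with fragments, against 11.951, 11.984 and 12.609 in medium alone. Its mammalian counterpart, NDUFA4, is now counted as a subunit of complex IV. Without medium-alone replicate 3 its log2 fold change of -0.20 (limma adjusted p = 0.831) was 0.018. ND-15, the fly NDUFS5, had the most negative log2 fold change of the complex, -0.35 (adjusted p = 0.666), with overlapping groups at 10.44, 10.35 and 10.14 with fragments against 10.50, 10.44 and 11.05 in medium alone; without that array it was -0.16. ND-B16.6, the fly NDUFA13, was the only varying gene of the 76 with a positive log2 fold change on the deposited scale, 0.021, at 9.99, 10.03 and 9.98 with fragments and 10.01, 10.01 and 9.91 in medium alone.

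**Figure D2:**
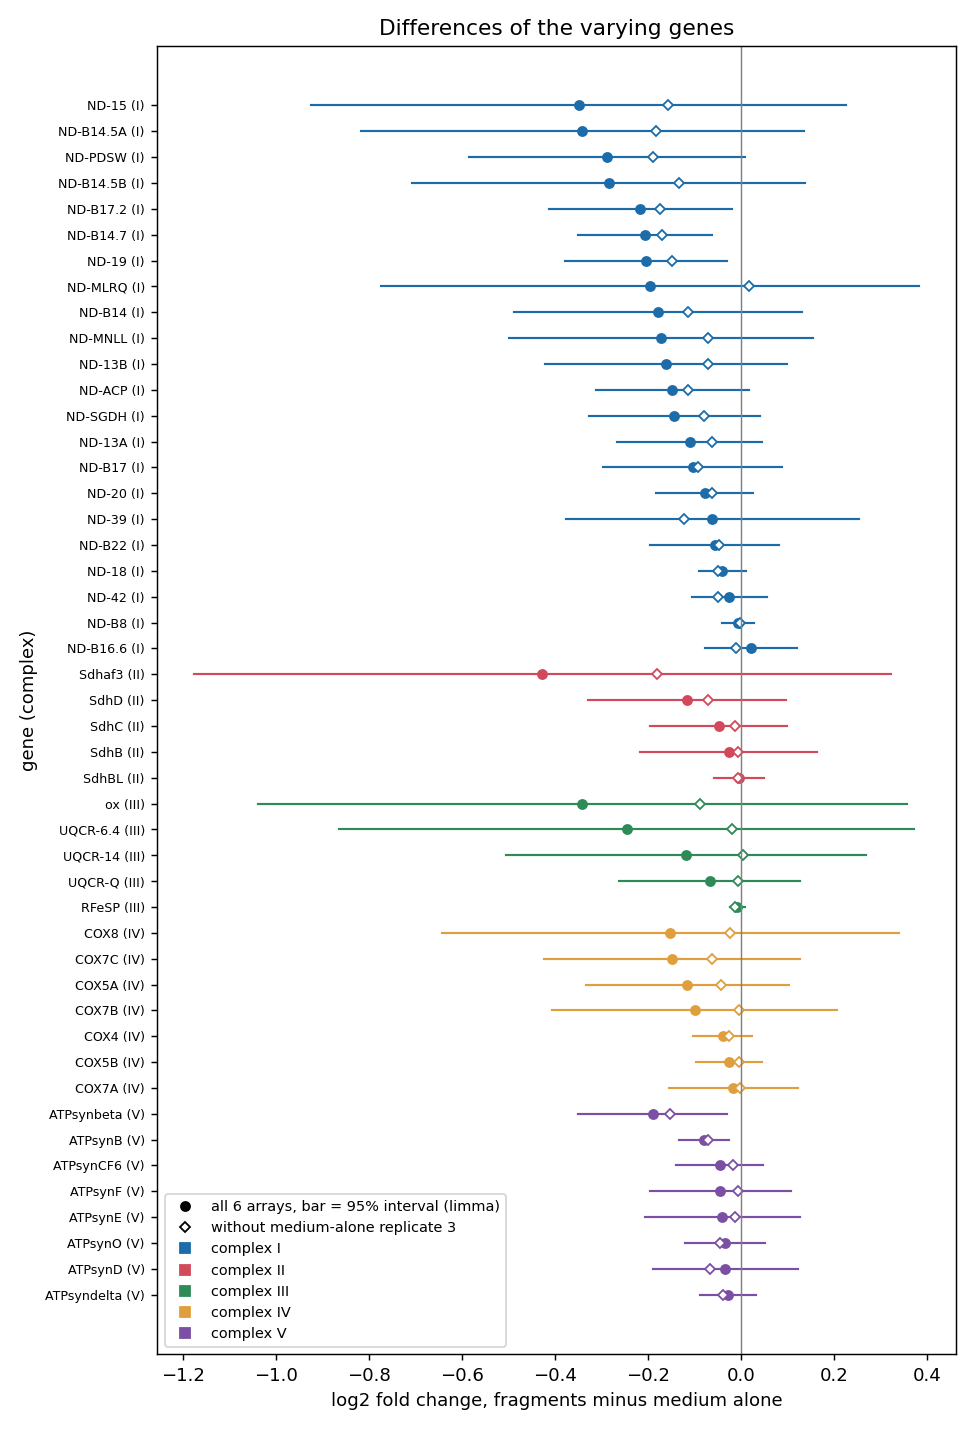
Log2 fold change (fragments minus medium alone, deposited scale) of the 47 varying genes by complex, with 95% limma intervals from all 6 arrays (filled circles) and the value without medium-alone replicate 3 (open diamonds). Most values move toward 0 without that array; 46 of 47 circles lie below 0, while on the spike scale 41 lie above it.

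Complex II, succinate dehydrogenase, is the only complex of the respiratory chain that is also an enzyme of the citric acid cycle. Of its subunit genes 3 were among those examined, and these differed little. SdhA, another subunit gene, had no probe set among them and was not analysed. SdhB, the iron-sulfur subunit, read 10.08, 10.15 and 9.92 with fragments, against 10.07, 10.04 and 10.11 in medium alone. SdhC, which with SdhD anchors the enzyme in the membrane, read 10.60, 10.68 and 10.53 with fragments, against 10.61, 10.62 and 10.72 in medium alone. SdhD had a log2 fold change of -0.12 with a 95% interval of -0.33 to 0.098. The groups overlapped in each of the 5 varying genes of the complex, and the median was -0.048 as deposited and 0.21 on the spike scale.

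Sdhaf3, whose product helps to assemble the iron-sulfur subunit, had the most negative log2 fold change of all 76 genes and a wide error. It read 7.48, 7.40 and 7.82 with fragments, against 7.77, 7.73 and 8.49 in medium alone. On both sides the third array was the highest, and the groups overlapped. The log2 fold change was -0.43 with a 95% interval of -1.18 to 0.32 (limma adjusted p = 0.686), -0.18 without medium-alone replicate 3, -0.17 on the spike scale and -0.31 without replicate 3 of either group. In that last setting, with 2 arrays per group and the varying probe sets alone, it was the only one of the 76 genes to pass (limma adjusted p = 0.0187), where 20.4% of the varying probe sets passed, 12.8% as lower.

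Complex III showed no separated genes. The median over its 5 varying genes was -0.12 as deposited and 0.14 on the spike scale, and -0.013 without medium-alone replicate 3. RFeSP, the Rieske iron-sulfur protein that takes electrons from ubiquinol, varied least, at 10.37, 10.37 and 10.36 with fragments and 10.38, 10.37 and 10.36 in medium alone. Its 95% interval was -0.024 to 0.0092, from an SE of 0.0061 that was 0.026 without flat probe sets. Its range over the 6 arrays, 0.021, was not far above the 0.01 limit for a flat gene. The narrow interval therefore does not show that its transcript was unchanged. The gene ox encodes a small accessory subunit, the counterpart of mammalian UQCR10. It read 10.09, 10.19 and 10.05 with fragments, against 10.16, 10.23 and 10.96 in medium alone. Apart from the third array of medium alone, the arrays of both groups lay close together: the log2 fold change of -0.34 (limma adjusted p = 0.744) was -0.088 without it. UQCR-6.4, another small subunit, showed the same array, at 11.39, 11.50 and 11.46 with fragments against 11.46, 11.48 and 12.15 in medium alone. UQCR-14, the counterpart of mammalian UQCRB, read 11.52, 11.66 and 11.40 with fragments against 11.52, 11.53 and 11.89 in medium alone. It had a log2 fold change of -0.12 (95% interval -0.51 to 0.27), and 0.0049 without that array. The genes ox and UQCR-6.4 were named after their values were seen.

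Complex IV, cytochrome c oxidase, was measured through 7 nuclear genes of its outer subunits, which surround a catalytic core encoded in mitochondrial DNA. The groups overlapped in all 7. Their median was -0.10 as deposited and 0.16 on the spike scale, -0.024 without medium-alone replicate 3 and 0.0082 without replicate 3 of either group. COX4, a regulatory subunit, read 10.85, 10.88 and 10.82 with fragments and 10.87, 10.88 and 10.92 in medium alone, with a 95% interval from -0.10 to 0.024. COX5A read 11.56, 11.58 and 11.51 with fragments, against 11.65, 11.54 and 11.81 in medium alone (log2 fold change -0.12, limma adjusted p = 0.714). The most negative log2 fold change of the complex was that of COX8, at -0.15 with a 95% interval of -0.64 to 0.34.

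Complex V held the other 2 of the 13 separated genes, out of its 8 varying genes (25.0%, against 17.4% of all varying probe sets). Centred on the varying probe sets 1 of the 8 lay wholly below, against 14.0%, and on the spike scale 0 lay wholly above, against 36.4%. The median over its 8 varying genes was -0.042 as deposited and 0.22 on the spike scale, and -0.041 without medium-alone replicate 3. ATPsynbeta, the catalytic subunit, read 11.038, 10.890 and 10.998 with fragments, against 11.144, 11.111 and 11.241 in medium alone. Each fragment array was below each medium-alone array, a difference of 1.14-fold (log2 fold change -0.19, 95% interval -0.35 to -0.030, limma adjusted p = 0.392). It was -0.15 without medium-alone replicate 3, -0.16 without replicate 3 of either group and 0.072 on the spike scale. The other probe set of ATPsynbeta did not separate the groups, at 10.94, 11.02 and 10.96 with fragments against 10.91, 11.07 and 11.14 in medium alone (log2 fold change -0.065, adjusted p = 0.833).

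ATPsynB, of the stalk that holds the catalytic head in place, had the smallest adjusted p of the 76 genes over all probe sets. It read 11.99, 11.95 and 11.94 with fragments, against 12.05, 12.02 and 12.06 in medium alone. The groups were apart on the deposited scale, by a log2 fold change of -0.080 (SE 0.020, limma adjusted p = 0.300), or 1.06-fold. Without flat probe sets the SE was 0.030 and the limma adjusted p 0.196, where the smallest was the 0.0866 of ND-B14.7. On the spike scale the log2 fold change was 0.18 and the groups were not apart. The remaining 6 varying genes (ATPsynD, ATPsynE, ATPsynF, ATPsynO, ATPsynCF6 and ATPsyndelta) had overlapping groups and log2 fold changes between -0.046 and -0.029.

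**Figure D3:**
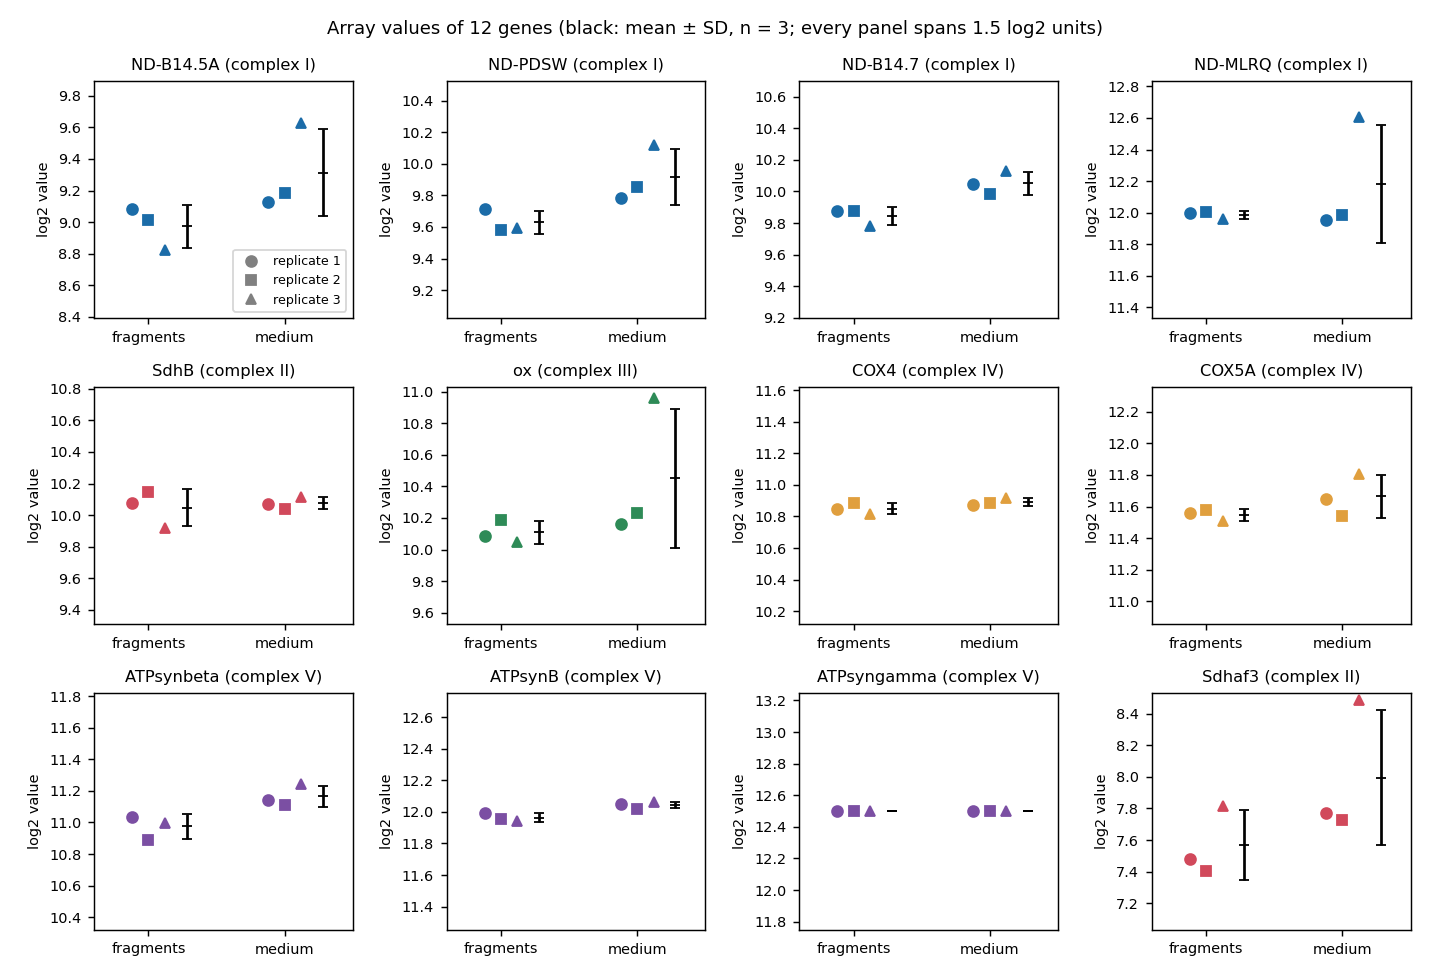
Log2 values on the deposited scale of 12 genes in each array (symbols give the replicate), with fragments left of medium alone and the mean ± SD (n = 3) in black; each panel spans 1.5 log2 units. In ND-MLRQ, ox and Sdhaf3 replicate 3 of medium alone stands apart, in ND-B14.7, ATPsynbeta and ATPsynB the groups do not overlap, and ATPsyngamma is flat.

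The mitochondrial ribosomal protein genes, which make the machinery that translates the mitochondrially encoded subunits, and the cytosolic ribosomal protein genes were set beside these values. The median over the 63 varying mitochondrial ribosomal protein genes of 69 was -0.26 as deposited, close to 0 (0.0023) on the spike scale and -0.11 without medium-alone replicate 3. Their groups were apart downward in 27 genes on the deposited scale (42.9%, against 17.4% of varying probe sets). On the spike scale they were apart upward in 5 of the 63, where 36.4% of varying probe sets were. In the limma fit of the varying probe sets 2 were called lower (3.17%, against 4.56%). Without medium-alone replicate 3 it was 6 of the 63, where 7.37% of all varying probe sets were called lower. The 34 varying cytosolic ribosomal protein genes of 41 had a median of -0.0059. These differences between gene groups were not tested. Medium-alone replicate 3 was the highest of the 6 arrays in 60 of the 63 mitochondrial ribosomal protein genes and in 33 of the 47 oxidative phosphorylation genes. It was the highest in 14 of the 34 cytosolic ribosomal protein genes and in 2167 of the 7241 varying probe sets. On fragment replicate 3 the groups of genes parted: it was the lowest of the 3 fragment arrays in 37 of the 47 oxidative phosphorylation genes, but the highest in 53 of the 63 mitochondrial ribosomal protein genes. Over all varying probe sets it was the lowest of the 3 in 2176 and the highest in 3417.

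**Figure D4:**
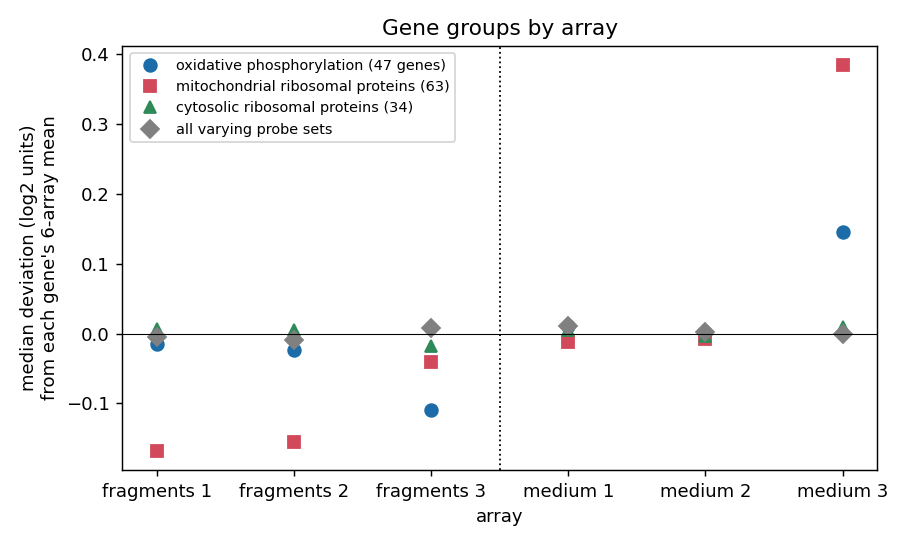
Median deviation from each gene's mean over 6 arrays, in log2 units on the deposited scale, for the varying genes of 3 groups and for all varying probe sets, by array with fragments left of medium alone. Oxidative phosphorylation genes sit at -0.11 on fragment replicate 3 and 0.15 on medium-alone replicate 3, and mitochondrial ribosomal protein genes at -0.041 and 0.38; the spike scale would add 0.26 to each difference between groups.

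Other genes of mitochondrial energy metabolism were examined from 9 lists, of which 81 genes of 136 symbols were measured and 59 varied. Over all probe sets 0 of them passed (limma; 13, or 16.0%, had an unadjusted p under 0.05, against 10.8% of all probe sets), and among the varying probe sets 0 were called higher and 3 lower. Those 3 are 5.08% of the 59, against 4.56% of all varying probe sets called lower. The 3 were Pdp, the phosphatase that activates pyruvate dehydrogenase, mtDNA-helicase, which unwinds mitochondrial DNA for replication, and Hsp60A, the matrix chaperonin. Pdp read 7.23, 7.17 and 7.35 with fragments, against 7.63, 7.61 and 7.66 in medium alone (log2 fold change -0.38, limma adjusted p = 0.132, and 0.0196 without flat probe sets). For mtDNA-helicase the values were 7.02, 7.27 and 7.31 with fragments and 7.77, 7.73 and 7.84 in medium alone (log2 fold change -0.59, adjusted p = 0.172, and 0.0223 without flat probe sets). Hsp60A read 10.74, 10.62 and 10.74 with fragments, against 10.98, 11.01 and 10.91 in medium alone, with a log2 fold change of -0.26 (adjusted p = 0.222, and 0.0472 without flat probe sets), equal in size to the shift between the scales. Without medium-alone replicate 3, 5 of the 59 varying listed genes were called lower and 1 higher in the fit of the varying probe sets. Of all varying probe sets 7.37% were then called lower and 4.72% higher. The 5 were Pdp, mtDNA-helicase and Hsp60A (limma adjusted p = 0.0265, 0.0295 and 0.0318 in that order) with AIF (0.0436) and Coa7 (0.0395). The 1 higher was mTerf3, of a family of mitochondrial transcription termination factors. It read 8.38, 8.45 and 8.46 with fragments, against 7.79, 7.79 and 8.38 in medium alone, so that the groups were barely apart on all 6 arrays (log2 fold change 0.44, limma adjusted p = 0.556, and 0.207 without flat probe sets). Without the third array of medium alone its log2 fold change was 0.64 (adjusted p = 0.00218 without flat probe sets). AIF and mTerf3 were named after their values were seen.

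The 7 measured genes of the list of subunits under other symbols included blw and sun of the ATP synthase and levy and cype of complex IV; the list also held mge, which belongs to the import machinery of the outer membrane. Of the 5 varying ones 0 had groups apart, and mge differed most, by -0.12. Among 11 measured assembly factors, Coa7 had the largest log2 fold change, -0.44 (limma adjusted p = 0.259, 0.0505 without flat probe sets, and 0.0395 there without medium-alone replicate 3), with 7.90, 7.96 and 8.02 with fragments against 8.42, 8.24 and 8.55 in medium alone. The largest differences of the other lists that did not pass were those of mTerf3 (0.44, described above), ScsbetaG in the citric acid cycle (-0.39), the outer-membrane channel gene Porin2 (0.50), the transcription factor gene cnc (0.24) and the import gene Tim8 (-0.31). For ScsbetaG and Tim8 medium-alone replicate 3 stood above the other arrays of its group by 0.95 and 0.57 log2 units. No gene of cytochrome c and no mitochondrially encoded subunit was matched by symbol, so those were not analysed here.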

How the data were processed

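The table holds log2 values, 1 per probe set and array, deposited by the authors. Per the submitters' processing notes R 2.7.2 was used; how probe sets were summarised and normalised is not stated in the sources. After 183 control probe sets were dropped, 18769 remained, and no filter or rescaling was applied. Genes were named from the platform annotation; the 76 gene identifiers were found in the RefSeq table (Release 6 plus ISO1 MT) and their symbols were current.

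The test was limma 3.58.1 under R 4.3.3 (lmFit and eBayes, no trend), two-sided, with Benjamini-Hochberg adjustment across the 18769 probe sets. The fit was repeated over the 7241 varying probe sets, since flat ones draw the prior variance toward 0 (0.123 prior degrees of freedom, against 1.36 without them). Intervals are 95% intervals of the fit over all probe sets. The number of arrays limits the precision, and since the labels call the replicates biological without saying whether they were separate cultures, p-values measure only the spread between these samples, which may be technical.

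Given with all 6 values were called genes, the 3 largest rises and falls per complex (2 in complex II) among varying genes whose groups did not overlap, the gene of highest mean, and core subunits; other genes named were chosen after their values were seen. ND-MNLL was counted as a subunit, not as a paralog. Complex I genes were assigned to arms from general knowledge. The genes and lists were chosen with earlier results of these data known. Alternatives were other scales, arrays left out, the replicate number as a block, and other rules for probe sets.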

Additional observations from a re-analysis of the deposited data

Results flagged for a closer look

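The second probe set assigned to COX7C differed in the direction opposite to that of the one used for the gene. It read 6.826, 6.982 and 6.673 with fragments, against 6.002, 6.101 and 5.885 in medium alone, so that each fragment array was above each medium-alone array. The log2 difference was 0.83 with an SE of 0.107 (limma adjusted p = 0.118, and 0.0116 without flat probe sets), and 0.78 without medium-alone replicate 3. In medium alone each value was under 6.23, the median over flat probe sets, and no linear fold is given for that reason. It was noted because it is a signal in data outside the values used for the comparison. The probe set used for COX7C read 11.27, 11.21 and 11.12 with fragments, against 11.32, 11.21 and 11.52 in medium alone, with a log2 fold change of -0.15 (adjusted p = 0.704). Which transcripts the second probe set detects was not tested.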

How the results depend on the processing

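With all probe sets in the limma fit, 0 of the 76 genes passed under any alternative that was run, and the smallest adjusted p was 0.0737, on the spike scale; among the varying probe sets Sdhaf3 passed without replicate 3 of both groups. On the deposited scale the median log2 fold change over all 76 genes, flat ones included, was -0.031. It was 0.23 on the spike scale, where the medians of complexes I to V were 0.19, 0.24, 0.25, 0.25 and 0.23, because that scale adds 0.26 to each gene. With flat genes left out it was -0.10, and -0.15, -0.12 and -0.10 for complexes I, III and IV. The median of complex IV, -0.0082 with its paralogs, was -0.10 without paralogs, and the same without low probe sets. That of complex V, -0.031, was -0.0096 after quantile normalization, -0.013 when arrays were centred on the varying probe sets, and 0 without replicate 3 of both groups, which was chosen after seeing the data; with 1 array left out it ranged from -0.032 to 0. The number of genes with groups apart, 14 with 1 flat gene (ND-B18), was 4 on the spike scale, all 4 higher, and 3 when centred, all lower. After quantile normalization it was 11, all lower, and the share over all probe sets was not counted there. Shares of the 76 genes are set beside the share of all probe sets apart in either direction. They were 18.4% beside 17.6% as deposited, 5.26% beside 15.3% on the spike scale and 3.95% beside 11.8% when centred. As deposited all 14 genes lay lower, and 9.74% of all probe sets were apart in that direction. The number of genes apart ranged from 16 to 26 with 1 array left out (26 without medium-alone replicate 2, 25 without fragment replicate 2, 22 without fragment replicate 1). There 24.3% to 29.4% of all probe sets were apart, against 21.1% to 34.2% of the genes. The number was 26 without replicate 3 of both groups, 34.2% beside 42.9%, where fewer arrays have to be parted.

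With the replicate number as a block, 0 genes passed over all probe sets (smallest adjusted p 0.454) and 0 among the varying ones (0.105). Deviations of same-numbered arrays correlated at 0.44, 0.038 and 0.38. Fragment replicate 1 correlated at 0.46 with medium-alone replicate 2, and fragment replicate 3 at -0.33 and -0.37 with medium-alone replicates 1 and 2. Deviations within a group of 3 sum to 0, and medium-alone replicate 3 stood apart from the other 2. These values therefore cannot tell whether same-numbered arrays were paired. Arrays have no read depth, and nothing can be said of the 29 flat genes from the probe sets that stand for them.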

Other observations

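Of the 7 genes with more than 1 probe set, ND-ACP had 3 that varied. Their log2 fold changes on the deposited scale were -0.15, -0.10 and -0.17, but the groups were apart only in the first. ATPsyngamma was flat in the probe set of highest mean, while its other probe set read 12.16, 12.15 and 12.19 with fragments, against 12.16, 12.18 and 12.13 in medium alone, with a 95% interval of the difference from -0.033 to 0.059. For COX7B the other varying probe set had a log2 fold change of -0.024, against -0.10 in the one used, and for ND-B17 -0.031, against -0.10.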
